A study of Homo sapiens with 3 samples.

Results

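The enzymes of drug and polyphenol metabolism and the receptors that govern them were examined in Huh7 cells, an established human hepatoma line. They formed a list of 47 genes chosen by function, with earlier results of these data known. The list held 14 cytochromes P450, the P450 reductase POR and the flavin monooxygenase FMO5, 2 carboxylesterases, 6 UDP-glucuronosyltransferases, 5 sulfotransferases, 11 glutathione transferases, 3 acetyl and methyl transferases and 4 receptor genes. Of these, 41 were matched to at least 1 probe through the RefSeq accessions on the array, out of 19740 gene symbols named in the same way. No probe was matched for CYP2A6, POR, UGT1A1, SULT1A1, SULT1A3 and GSTA1, whose expression was not analysed here. The cells were kept in DMEM with fetal calf serum and were left untreated or were exposed to chlorogenic acid (CA), a plant polyphenol studied as an inducer of tumor cell differentiation, at 50 or 100 μM for 24 h. The study's methods name DMSO as the solvent of CA and as vehicle reference, while the label of the untreated sample gives no treatment, so that solvent in that culture was not settled by the sources. RNA of each group was hybridised to 1 single-colour Agilent array, and the data therefore comprised 3 arrays with no replicate. Every ratio below is a difference between individual arrays of 1 cell line, has no replicate check, and was not tested.

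Foreign compounds and dietary phenols are handled in hepatocytes in stages. Phase 1 enzymes, chiefly cytochromes P450, flavin monooxygenases and esterases, oxidise or hydrolyse the compound, and phase 2 enzymes then attach glucuronic acid, sulfate, glutathione, an acetyl or a methyl group, which makes it easier to excrete. CA is an ester of caffeic acid and quinic acid, and hydrolysis, glucuronidation and sulfation are among the routes known for such phenols. Several of the enzyme genes are induced through the aryl hydrocarbon receptor AHR with its partner ARNT, or through the nuclear receptors NR1I2 (PXR) and NR1I3 (CAR), and hepatoma lines are known to express many of the P450 genes weakly.

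Signals are given here scaled, so that the 75th percentile of each array equals 1000, and ratios are log2 ratios of scaled signals. Before scaling this percentile was 1059, 1207 and 1249 intensity units in untreated cells and at the lower and higher dose, and 70.4%, 71.1% and 70.9% of the gene spots were well above background by the scanner software's own call. Signals of different probes depend on the probe and are not comparable as transcript levels. Of 15 hepatocyte lineage markers, 13, 14 and 14 were well above background on the 3 arrays, with ALB, AFP, APOB and TTR among them, whereas HNF4A was so on the CA 50 μM array only and TF had a usable spot on the CA 100 μM array only. Of 7 fibroblast markers 4, 4 and 5 were well above background (COL1A2, COL3A1, LUM and PDGFRB on each array), DCN and THY1 on none. Of 5 endothelial markers 3 were (CDH5, PECAM1 and VWF), KDR and TEK on no array, and their part in the results was not tested. The summed intensity was 540619, 551324 and 553738 for the hepatocyte list, 622, 704 and 803 for the fibroblast list, 805, 1097 and 1049 for the endothelial list and 835, 1037 and 987 for the leukocyte list, of which 5 of 5 genes gave a signal above background on each array. In bulk RNA, fewer cells that express a gene and less RNA of it per cell cannot be told apart.

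Most of these genes were measurable in Huh7 cells. On each of the 3 arrays, 39 of the 41 members with a probe (95.1%) were well above background, against 75.8%, 76.3% and 76.4% of all named genes, and the members were the same 39 on every array. The members not well above background on any array were CYP3A4, the main drug oxidising P450 of the adult liver, and SULT1B1, a sulfotransferase of small phenols and thyroid hormones. The CYP3A4 probe gave 11.7 in untreated cells, 7.48 at CA 50 μM and 9.97 at the higher dose, and the SULT1B1 probe gave 6.39, 2.24 and 2.42. Both sets of values lay in the range of unspecific signal, so that no ratio was formed. The 41 members were read by 55 probes, of which 6 were printed 10 times and the others in a single spot, 51 were above background on all arrays and 0 were saturated.

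**Figure D1:**
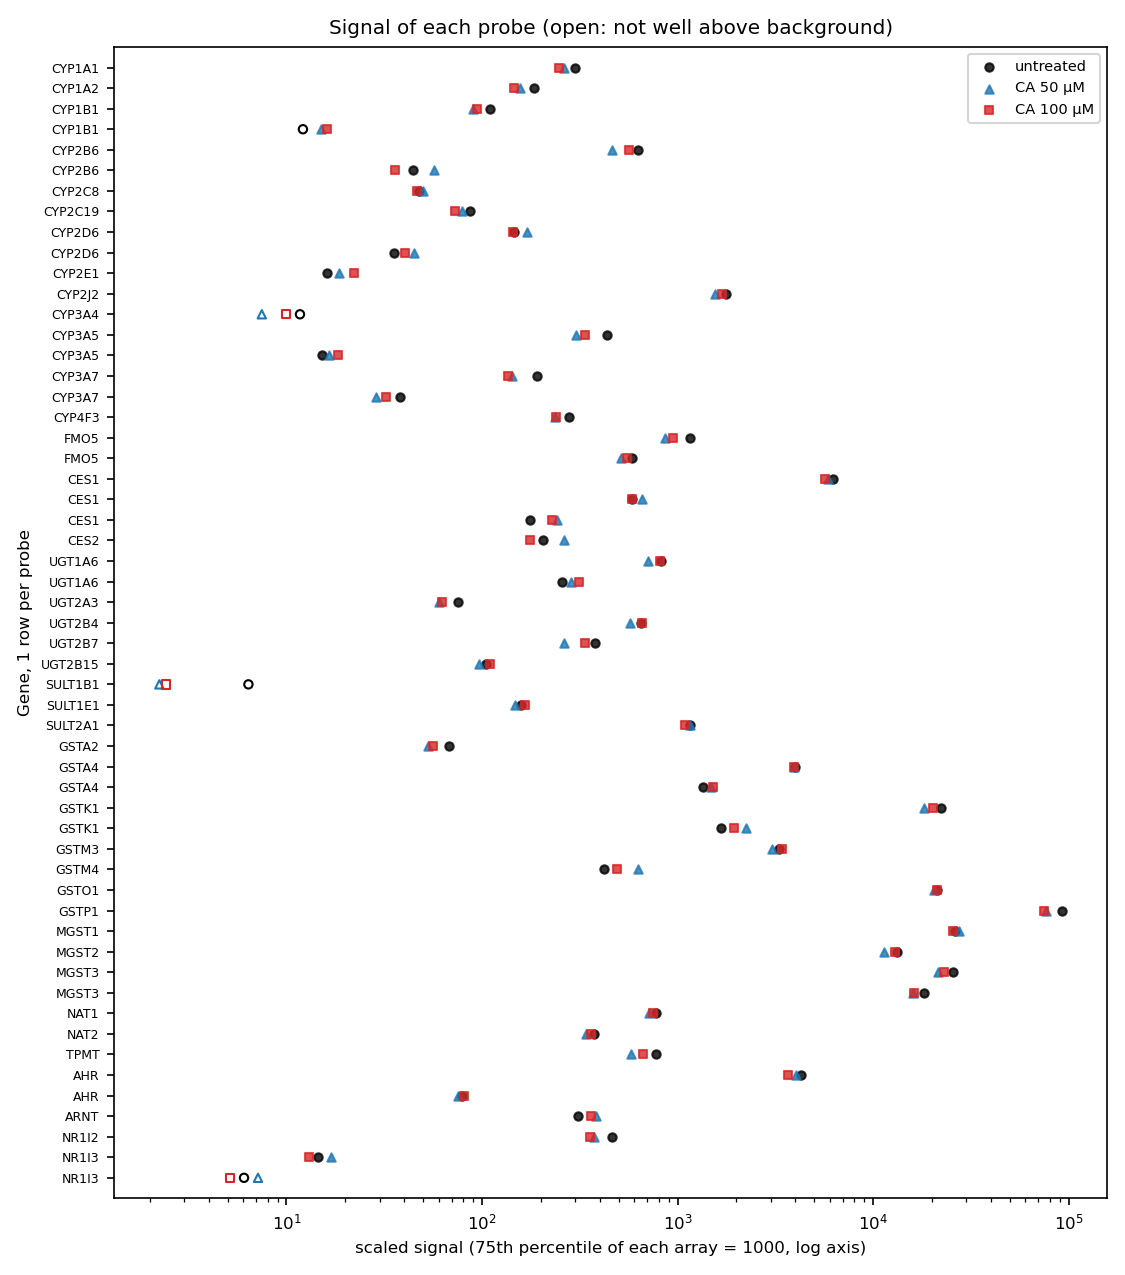
Scaled signal (75th percentile of each array set to 1000, log axis) of each of the 55 member probes, 1 row per probe, for untreated cells (circles), CA 50 μM (triangles) and CA 100 μM (squares), with open symbols where a probe was not well above background. The 3 symbols of a row lie close together for nearly all probes, and the open symbols belong to CYP3A4, SULT1B1, the dimmer NR1I3 probe and, in untreated cells, the dimmer CYP1B1 probe; positions of different rows are not comparable.

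By the brightest probe of each gene, no member differed by 1.5-fold or more between any of the 3 pairs of arrays. At CA 50 μM against untreated, 0 of 39 members were at least 1.5-fold higher, against a background of 4.15% of 14700 named genes, and 0 were at least 1.5-fold lower, against 2.17%. At CA 100 μM against untreated the members again gave 0 and 0, against 1.65% higher and 1.54% lower of 14640 genes. Between CA 100 μM and CA 50 μM they gave 0 and 0, against 1.4% and 1.54% of 14666 genes. Shares of this size amount to no more than 2 genes in a list of this length, so that a count of 0 does not set the members apart from other genes.

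The member ratios were small and lay mostly below 0. At CA 50 μM they ran from -0.53 (UGT2B7) to 0.58 (GSTM4), which is 0.691 to 1.49 times the untreated signal, with a median of -0.17 where that of all named genes was -0.04. At CA 100 μM they ran from -0.49 (CYP3A7) to 0.47 (CYP2E1), with a median of -0.13 against -0.03. This member median lay between -0.071 and -0.062 under cyclic loess, under quantile normalization, in the deposited log2 values and when the probes of a gene were averaged. The ratio was below 0 in 30 of 39 members at CA 50 μM, where 56.3% of all genes were below 0, and in 31 of 39 at CA 100 μM, where 57.7% were. The doses share the untreated array, so that its error enters both sets of ratios in the same direction and the pair of medians is not a repeated observation. Between CA 100 μM and CA 50 μM the median was 0.05 against 0.00, and 16 of 39 members were below 0, where 49.5% of all genes were. The SD over members was 0.25, 0.19 and 0.19 in these 3 comparisons, and 0.31, 0.25 and 0.26 over all genes.

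Ratios moved with signal strength over the whole array. In 4 equal classes of signal, from dim to bright, the median ratio of all named genes at CA 50 μM was 0.01, 0.02, -0.04 and -0.11, and that of the members in these classes was -0.14, -0.20, -0.19 and -0.10. For CA 100 μM the 4 medians were -0.04, 0.01, -0.02 and -0.06 for all genes and -0.19, -0.23, -0.07 and -0.09 for the members. In the brightest class the members at CA 50 μM thus lay at the level of the other genes, whereas they lay lower in each of the other 3. The part of signal strength in the members' median was not tested beyond these values.

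**Figure D2:**
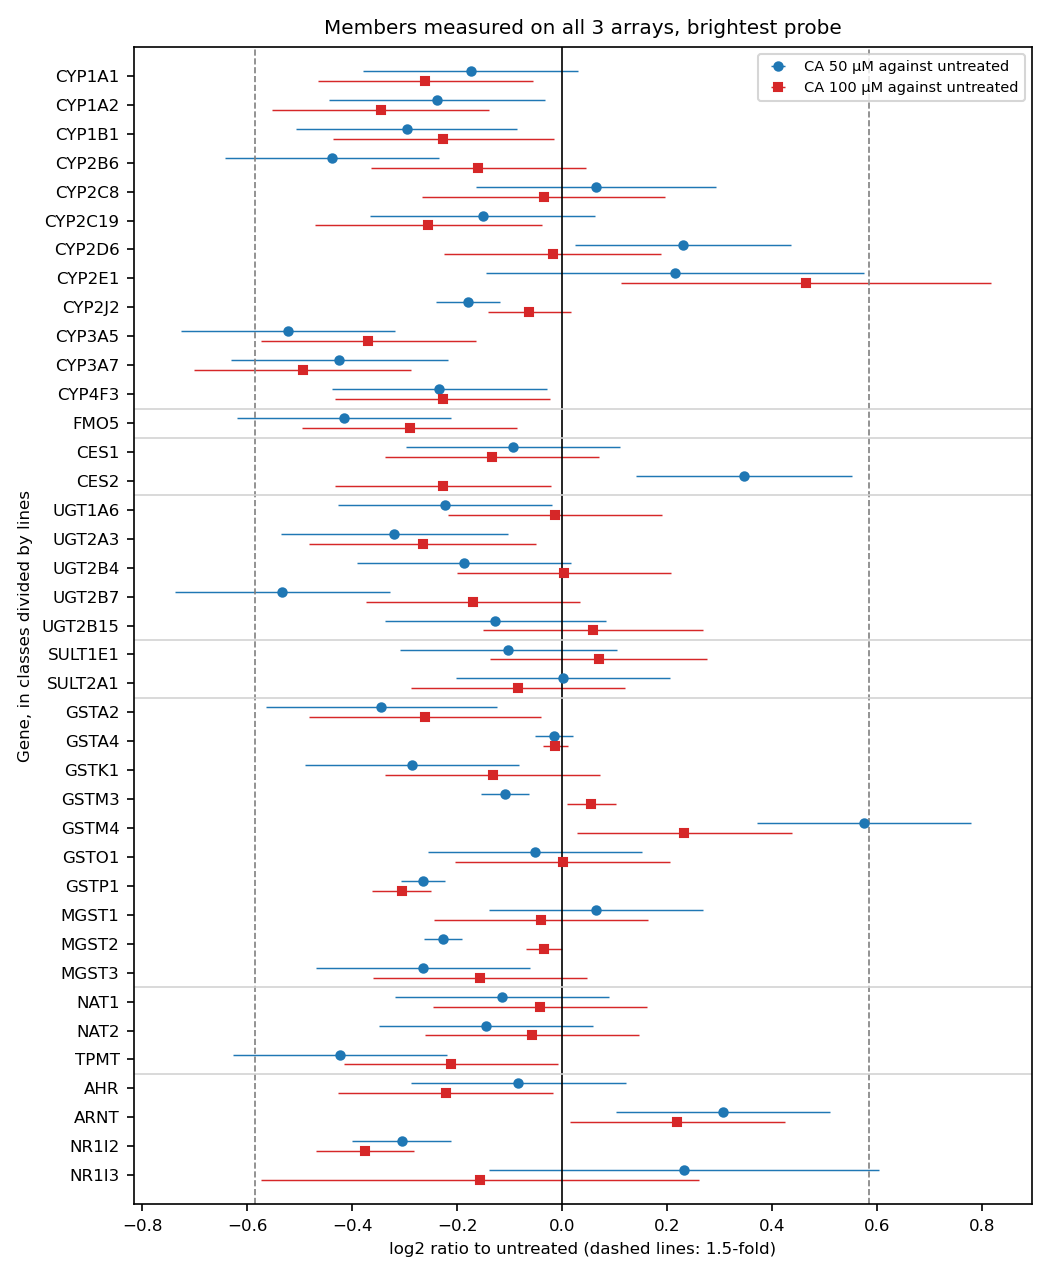
Log2 ratio to untreated of the 39 members measured on all 3 arrays at CA 50 μM (blue circles) and CA 100 μM (red squares), 1 row per gene by its brightest probe; bars are the SD between the spots for probes printed 10 times and the error propagated from the scanner software for the others, and dashed lines mark 1.5-fold. All points lie between the dashed lines, 30 of 39 lie left of 0 at CA 50 μM and 31 of 39 at CA 100 μM, and the bars describe error within an array only.

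Of the receptor genes, AHR and NR1I2 gave lower signals on both CA arrays and ARNT higher ones. The brighter AHR probe gave 4293 in untreated cells, 4053 at CA 50 μM and 3681 at CA 100 μM, with log2 ratios of -0.08 and -0.22 and a scanner error of 0.20. The dimmer AHR probe, at 79.4, 75.6 and 80.8, lay within 0.1 log2 units of untreated at both doses, so that the 2 probes of this gene differed at the higher dose. ARNT, the DNA binding partner of AHR, gave 308, 381 and 359, with ratios of 0.31 and 0.22, each within 2 scanner errors of 0. NR1I2, which senses drugs and bile acids and induces the CYP3A genes, gave 462, 374 and 356, with ratios of -0.31 ± 0.09 and -0.37 ± 0.09 (SD between the spots of a probe printed 10 times). The SD between spots does not cover variation between arrays, so the size of the NR1I2 ratios was not judged by it. At CA 50 μM its median was 0.065 over 815 probes printed 10 times, where the median absolute ratio of all named genes was 0.18. The sign of NR1I2 was kept when the spots that a disturbed area of the CA 100 μM array covered were left out. The brighter probe of NR1I3, which responds to phenobarbital-like compounds, gave only 14.5, 16.99 and 13.0, with ratios of 0.23 and -0.16 and errors of 0.37 and 0.42, and its other probe was not above background on any array.

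Sequences upstream of the members were searched for the core of the AHR and ARNT response element, TNGCGTG, and for that of the antioxidant response element of NRF2, TGACNNNGC, on both strands. The windows were those of RefSeq on GRCh38.p14, 300 bases long from 250 before to 50 after each start. All 47 genes of the list were looked up, with or without a probe. Of 38 with a window, 2 held TNGCGTG (CES2 and UGT1A6), against 6.69% of 27305 genes and 5.51% of 35116 windows, and 7 held TGACNNNGC (CYP2B6, UGT1A6, GSTA4, GSTO1, GSTP1, MGST1 and ARNT), against 16.1% of genes and 13.3% of windows. No windows were given for CYP1B1, CYP2D6, POR, CES1, UGT2B4, SULT1A1, MGST2, NAT1 and NAT2. The matches to the AHR and ARNT core are shown because its factors belong to the list, and those of GSTP1 and GSTO1 as examples of the other core upstream of glutathione transferase genes, with the match in capitals and 10 bases on each side, 5′ to 3′ on the strand of the gene. A match describes the letters only.
UGT1A6, -202 to -196 from a start, chr2:233691490-233691516, plus strand: gaacaggaacTCGCGTGccagccaggt
CES2, -240 to -234, chr16:66934221-66934247, plus strand: atcgaagatcTCGCGTGcgtcgatgct
CES2, -26 to -20, chr16:66934435-66934461, plus strand: gaagggggcgTGGCGTGgcgacggagt
GSTP1, -66 to -58, chr11:67583736-67583764, plus strand: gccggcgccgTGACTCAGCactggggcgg
GSTO1, -226 to -218, chr10:104254656-104254684, plus strand: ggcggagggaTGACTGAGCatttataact
GSTO1, -161 to -153, chr10:104254721-104254749, plus strand: cgagatgcttTGACACAGCcccttaagat

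By their brightest probes, 3 of 12 measured cytochromes P450 lay above 0 at CA 50 μM (CYP2C8, CYP2D6 and CYP2E1) and 1 of 12 at CA 100 μM (CYP2E1), with class medians of -0.21 and -0.23. The AHR-induced CYP1 genes, whose enzymes oxidise polycyclic aromatic compounds, gave no higher signal under CA by their brightest probes. CYP1A1 gave 298 in untreated cells, 264 at CA 50 μM and 248 at CA 100 μM. CYP1A2, the caffeine demethylase, gave 185, 157 and 145, with ratios of -0.24 and -0.35. The brighter CYP1B1 probe gave 110, 89.5 and 94.0. The dimmer one passed the background call only under CA, where it gave 14.9 and 16.2 against 12.1 untreated, 1.23 and 1.33 times that value. These signals lay near background, where the error of this probe's ratio between the CA arrays was 0.38, so that no direction was taken from it. Over the 6 measured genes of a list of 7 AHR targets, which holds these 3 members and UGT1A6, the medians by the brightest probe at the lower and higher dose were -0.21 and -0.15, with 0 and 1 above 0 and 0 past 1.5-fold at either dose. Of all named genes, whose medians were -0.04 and -0.03, 56.3% and 57.7% lay below 0. At least 1.5-fold higher were 4.15% and 1.65% of them, and at least 1.5-fold lower 2.17% and 1.54%. Among the AHR targets, NQO1, a quinone reductase induced through AHR and NRF2, was the 1 above 0, with ratios of -0.02 and 0.14. Dimmer probes of this list differed in direction, since that of TIPARP gave 331, 580 and 427, with ratios of 0.81 and 0.37 against -0.21 and -0.08 by its brighter probe, and that of UGT1A6 also lay above 0 at both doses.

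By their brighter probes, CYP3A5, CYP2B6 and CYP3A7, known as genes that NR1I2 or NR1I3 can induce or as close relatives of such genes, gave the lowest ratios among the P450 members at CA 50 μM. CYP3A7, the fetal liver form, was read at 190, 142 and 135 by the brighter probe and at 38.1, 28.8 and 32.4 by the other, with ratios of -0.42 and -0.49 for the first and -0.41 and -0.24 for the second. Both CYP3A7 probes were thus lower on both CA arrays, and CYP3A7 was the only member with a single-spot brightest probe more than 2 scanner errors below 0 at both doses. The brighter CYP3A5 probe gave 437, 304 and 338, with ratios of -0.52 and -0.37, and the dimmer one 15.2, 16.6 and 18.3, with ratios of 0.12 and 0.26 and errors of 0.37 and 0.36. CYP2B6 oxidises bupropion and cyclophosphamide, and its brighter probe gave 629, 464 and 563, its dimmer one 44.2, 56.6 and 35.9. At CA 50 μM the CYP2B6 ratio was -0.44 by one probe and 0.36 by the other, so that no direction can be given for this gene. By their brightest probes, the 8 measured genes of a list of 12 NR1I2 and NR1I3 targets had medians of -0.23 and -0.19, with 3 and 0 above 0 and 0 past 1.5-fold at either dose. Dimmer probes differed in direction here too, as for CYP3A5 and CYP2B6. ABCB1 of this list, named after its values were seen, had ratios of -0.11 and -0.001 by its brighter probe. Its dimmer probe gave -0.41 and 0.36. Of all named genes, with medians of -0.04 and -0.03, 56.3% and 57.7% lay below 0, while 4.15% and 1.65% were at least 1.5-fold higher and 2.17% and 1.54% lower. CYP3A43, a relative outside the 47 genes that was named, like TIPARP, after its values were seen, gave 1386, 1708 and 1678, with ratios of 0.30 and 0.28. CYP3A sequences are closely related, and signal from one gene on the probe of another cannot be told apart here.

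Among the other P450 genes, CYP2J2, which epoxidises arachidonic acid, was read by a probe printed 10 times and gave 1770, 1563 and 1695, with ratios of -0.18 ± 0.06 and -0.06 ± 0.08 (SD between spots). CYP2E1, which oxidises ethanol and acetaminophen, gave 16.1, 18.6 and 22.2, close to background, and its ratios of 0.22 and 0.47 had errors of 0.36 and 0.35. With another background correction, normexp, they became -0.18 and -0.08. CYP2D6, which handles many amine drugs, was read at 145, 170 and 144 by the brighter probe and at 35.7, 45.2 and 40.6 by the other. The CYP2D6 ratios were 0.23 and -0.02 for the first and 0.34 and 0.19 for the second. The CYP2C8, CYP2C19 and CYP4F3 ratios lay between -0.25 and 0.06 at both doses. FMO5, a flavin monooxygenase of the liver, was read at 1156, 866 and 945 by the brighter probe and at 582, 512 and 552 by the other, with ratios of -0.42 and -0.29 against -0.19 and -0.08. Both FMO5 probes lay below 0 at both doses, although the brighter one lay in the disturbed area of the CA 100 μM array, and its ratio there was replaced by the -0.08 of the other probe when such areas were left out.

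The carboxylesterases hydrolyse ester drugs, and both genes were measured on all 3 arrays. CES2 gave 206 in untreated cells, 262 at CA 50 μM and 176 at CA 100 μM. Its ratios of 0.35 and -0.23 lay on opposite sides of 0, and its ratio of CA 100 μM to CA 50 μM, -0.57, was the lowest of any member and was lower than that of 98.3% of the named genes. CES1 was read by 3 probes, which gave 6263, 5869 and 5710, then 586, 655 and 582, then 175, 242 and 228. The brightest CES1 probe had ratios of -0.09 and -0.13, the next 0.16 and -0.01 and the dimmest 0.47 and 0.38. The probes of CES1 thus gave no single direction, and no difference between CES1 and CES2 was taken from them.

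By their brightest probes, 5 of 5 measured glucuronosyltransferases of the list gave less signal at CA 50 μM than in untreated cells, their median being -0.22. Of all named genes 56.3% did so, with a median of -0.04, and the dimmer UGT1A6 probe gave more. Outside the 47 genes, UGT2B10, UGT2B11, UGT8 and UGT3A1, named after their values were seen, gave ratios of -0.02, 0.01, -0.03 and -0.01. The lower signal was thus not shared by these relatives. The 5 members lay around the untreated values at CA 100 μM, where their median was -0.01 and 2 of 5 lay above 0. UGT2B7, which glucuronidates morphine and many acids and phenols, gave 379 in untreated cells, 262 at CA 50 μM and 337 at CA 100 μM. Its ratio of -0.53 at CA 50 μM was the lowest of any member in that comparison, and 2.86% of the named genes lay lower. UGT1A6 is a phenol glucuronosyltransferase, whose brighter probe gave 824, 706 and 817 and whose dimmer one gave 256, 284 and 312, with ratios of -0.22 and 0.15 at CA 50 μM. The UGT1A genes share their last exons, and where on the transcript either probe lies was not resolved, so that UGT1A6 signals may include other UGT1A transcripts. UGT2A3 gave ratios of -0.32 and -0.27, UGT2B4 gave -0.19 and 0.00, and UGT2B15, which conjugates steroids and phenols, gave -0.13 and 0.06. Of the sulfotransferases, SULT1E1, which sulfates estrogens, gave 159, 148 and 167, and SULT2A1, which sulfates steroids and bile acids, gave 1157, 1159 and 1091. Their 4 ratios lay between -0.10 and 0.07, within 1 scanner error of 0.

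The glutathione transferases had medians of -0.17 and -0.04 over 10 measured genes, of which 8 and 7 lay below 0 by their brightest probes. GSTP1 gave 92435 in untreated cells, 76900 at CA 50 μM and 74777 at CA 100 μM, with ratios of -0.27 ± 0.04 and -0.31 ± 0.06 (SD between the spots of a probe printed 10 times). This probe was among the brightest of the array, and its ratios depended on the scaling, since they became -0.02 and 0.01 under quantile normalization and -0.01 and 0.00 in the deposited log2 values. No direction can be given for GSTP1. The microsomal MGST1 gave 26265, 27468 and 25545. MGST2, which acts on leukotrienes, gave 13290, 11361 and 12978, with ratios of -0.23 ± 0.04 and -0.03 ± 0.03 (SD between spots). These depended on the scaling too, becoming -0.11 and 0.06 under cyclic loess, -0.14 and 0.03 under quantile normalization and -0.13 and 0.04 in the deposited log2 values. The probes of MGST3 gave 25698, 21375 and 23053 in one case and 18216, 16001 and 16190 in the other, all 4 ratios lying below 0. The MGST3 probes were thus alike in direction at both doses.

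Of the soluble and mitochondrial glutathione transferases, GSTM4 gave the highest ratio of any member at CA 50 μM. Its signal was 419 in untreated cells, 625 at CA 50 μM and 493 at CA 100 μM, with ratios of 0.58 and 0.23 and an error of 0.20, and 4.35% of the named genes lay higher at CA 50 μM. GSTM4 stayed above 0 under every alternative tried, from 0.49 to 0.58 at CA 50 μM. Mu class genes are closely related in sequence, and another of them, GSTM2, also gave higher signals at CA 50 μM, at 135, 212 and 162 by one probe and 55.2, 115 and 83.0 by the other. Signal from one Mu class gene on a probe for another cannot be told apart here. GSTM3, by contrast, was read by a probe printed 10 times and gave 3292, 3053 and 3423, with ratios of -0.11 ± 0.05 and 0.06 ± 0.05 (SD between spots). GSTA4, which conjugates hydroxynonenal, gave 3973, 3931 and 3939 by a probe printed 10 times. Its ratios were -0.02 ± 0.04 and -0.01 ± 0.02, the smallest SD between spots of any member. The other GSTA4 probe gave 1358, 1488 and 1528, with ratios of 0.13 and 0.17 and an error of 0.20. GSTK1, the mitochondrial and peroxisomal form, was read at 22285, 18270 and 20332 by one probe and at 1672, 2235 and 1950 by another, on opposite sides of 0 at both doses. GSTO1 gave 21344, 20586 and 21359, and GSTA2, an alpha class form of the liver, gave 67.5, 53.2 and 56.3.

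The acetyl and methyl transferases lay below 0 at both doses, with medians of -0.14 and -0.06. TPMT, which methylates thiopurine drugs, gave 773, 576 and 667, and its ratio of -0.42 at CA 50 μM was just over 2 times its scanner error of 0.20. NAT1, an arylamine acetyltransferase of most tissues, gave 773, 714 and 751, and NAT2, its liver and gut counterpart, gave 376, 340 and 361, within 1 scanner error of untreated at both doses.

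Member ratios were then set against the error within the arrays. For single-spot probes the error propagated from the scanner software was 0.20 to 0.37 at CA 50 μM, with a median of 0.20 over 33 members. More than 2 such errors below 0 at CA 50 μM lay 6 of these 33 (CYP2B6, CYP3A5, CYP3A7, FMO5, TPMT and UGT2B7), against a background of 4.96% of 13965 genes. Above 0 by more than 2 errors lay 1 (GSTM4), against 8.44%. The members were chosen with earlier results of these data known, so that these shares are descriptive only. With CA 100 μM it was 1 below (CYP3A7), against 2.65% of 13909 genes, and 0 above, against 2.99%. Of the 6 genes low at CA 50 μM, CYP2B6 and CYP3A5 had another probe with a ratio above 0, and the other FMO5 probe lay at -0.19 with an error of 0.20. The scanner error was 0.20 for all bright single-spot probes of members, so that 2 errors acted much like a fixed cutoff in fold. By comparison, the SD between spots at CA 50 μM had a median of 0.065 over 815 probes printed 10 times. Neither measure covers the variation between cultures, extractions and arrays, which 1 array per group does not show.

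Several probes of the same gene gave a further view of this error. Of the members, 11 had at least 2 measured probes at CA 50 μM, and in 11 of 11 the dimmest probe had a higher ratio than the brightest, by a median of 0.23. Among 3266 named genes with several measured probes this was so in 69.2%, by a median of 0.15. At CA 100 μM, which shares the untreated array, it was so in 9 of 11 members and in 71.0% of 3237 genes, and between the CA arrays in 5 of 12 members and 46.5% of 3289 genes. The 2 probes lay on opposite sides of 0 and at least 0.3 apart in 5 members at CA 50 μM (CES1, CYP2B6, CYP3A5, GSTK1 and UGT1A6), against 32.4% of the genes, and in 3 at CA 100 μM (CES1, CYP3A5 and GSTK1), against 25.1%. Between the CA arrays it was 2 members (CYP2B6 and GSTK1), against 19.5% of the genes, with CYP2B6 at 0.28 by its brighter and -0.66 by its dimmer probe, the latter at least 1.5-fold lower. For these genes the sign given by the brightest probe is thus the sign of that probe and not of the gene. Probe position and transcript variants were not resolved, and their part was not tested.

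**Figure D3:**
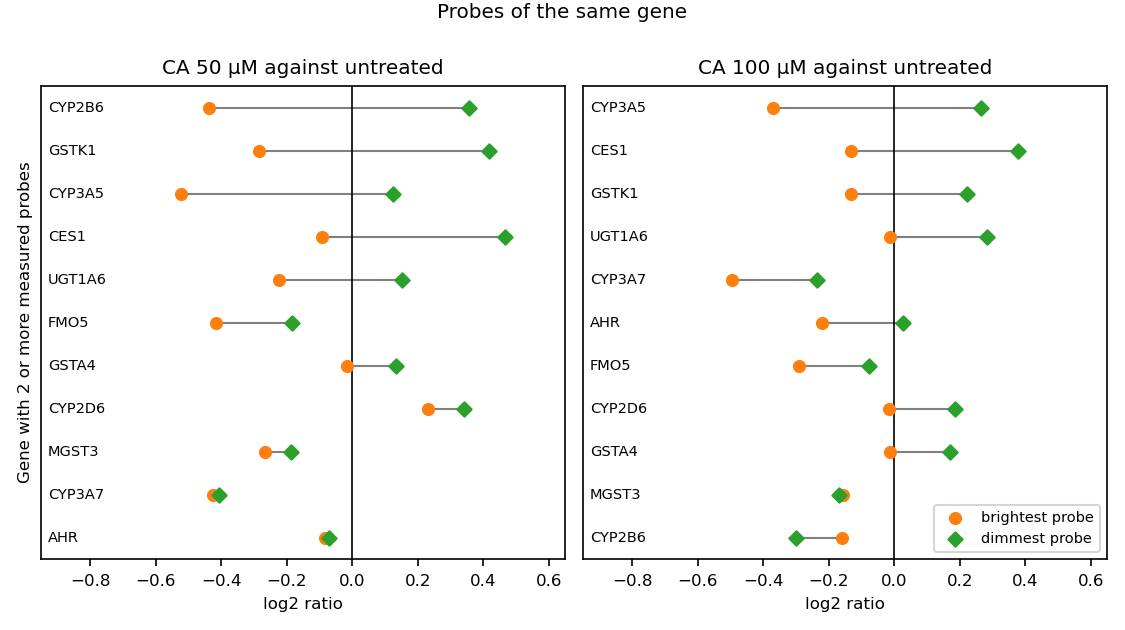
Log2 ratio to untreated of the brightest (orange circle) and dimmest (green diamond) measured probe of each of the 11 members with several such probes, at CA 50 μM (left) and CA 100 μM (right), 1 row per gene, ordered within each panel by the difference. The green diamond lies to the right of the orange circle in 11 of 11 genes at CA 50 μM and in 9 of 11 at CA 100 μM.

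The CA arrays were also compared with each other, which leaves out the untreated array, again by the brightest probe of each gene. Of all named genes 49.5% lay below 0 in this comparison. The signal at CA 100 μM was above that at CA 50 μM in 5 of 5 glucuronosyltransferases, with a median of 0.19 and a range of 0.05 (UGT2A3) to 0.36 (UGT2B7), and in 3 of 3 acetyl and methyl transferases, with a median of 0.09. It was below in 4 of 4 receptor genes, with a median of -0.11 and NR1I3 lowest at -0.39, and in both carboxylesterases, while the dimmer AHR probe lay at 0.10. The NR1I3 ratio came from signals near background, had an error of 0.38 and became -0.06 under normexp. The brighter AHR probe and ARNT, at -0.14 and -0.09, had errors of 0.20, and NR1I2 lay at -0.07 ± 0.08 (SD between spots). The cytochromes P450 were divided, with 6 above and 6 below 0 and a median of -0.03, and 7 of 10 glutathione transferases lay above 0. More than 2 scanner errors from 0 lay only CES2 of the 33 single-spot members, below, against 4.03% of 13937 genes, and 0 above, against 2.04%. Classes of 2 to 5 genes that share their arrays, and in part their sequences, are described here without a comparison between classes.

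**Figure D4:**
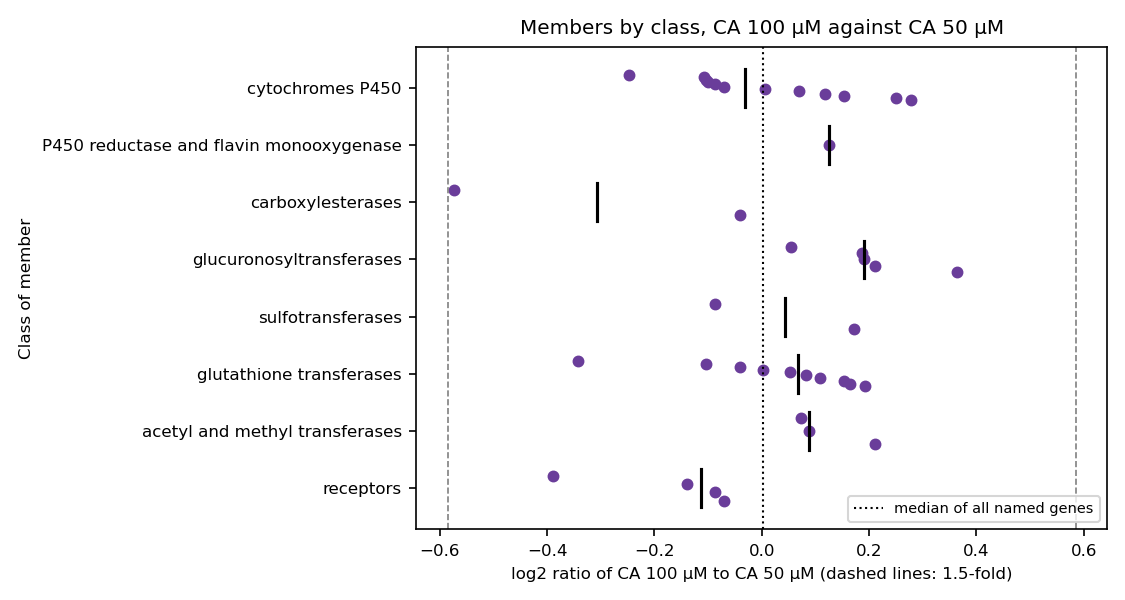
Log2 ratio of CA 100 μM to CA 50 μM of the 39 measured members (points) by class, with the class median as a black bar, the median of all named genes as a dotted line and 1.5-fold as dashed lines. All points lie between the dashed lines, the 5 glucuronosyltransferases lie right of 0, the 4 receptor genes lie left of it, and CES2 at -0.57 is the point farthest left.

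Further genes of the same pathway were read in the same way, by their brightest probes. Of a list of 84 partner and related enzyme genes, 80 had a probe and 73, 74 and 73 were measured in the 3 comparisons, whose medians were -0.06 and -0.05 for the lower and higher dose and -0.00 between the CA arrays. In the first comparison 3 of 73 were at least 1.5-fold higher and 2 at least 1.5-fold lower, against 4.15% and 2.17% of all genes, and in the second 0 of 74 either way, against 1.65% and 1.54%. Between the CA arrays 1 of 73 was higher (BAAT, which conjugates bile acids, at 0.80 from signals near background) and 1 lower (EPHX1, at -0.79), against 1.4% and 1.54%. BAAT and the 5 genes that passed 1.5-fold at CA 50 μM were named after their values were seen. EPHX1, the microsomal epoxide hydrolase, gave 615 in untreated cells, 1070 at the lower and 617 at the higher dose, and the others were GSTM2 at 0.65 and CYP2S1 at 0.63, and NNMT, which methylates nicotinamide, at -0.72 and AKR1C3, a steroid and carbonyl reductase, at -0.66. By these probes none of the 5 passed 1.5-fold at CA 100 μM, while the dimmer GSTM2 probe did, at 0.59. UGDH, which makes the glucuronic acid donor, gave 3609, 2766 and 3272.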

How the data were processed

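The authors labelled RNA of Huh7 cells with Cy3 and hybridised 1 whole human genome Agilent array per group, and groups were taken from the treatment label. The authors read the scans with Feature Extraction 11.0.1.1. Intensity values per spot are what the deposited files hold. The processed intensity is background subtracted and detrended, but not scaled between arrays. A deposited log2 table, whose normalization by the authors is not given in the sources used here, served as an alternative.

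Gene spots with an outlier flag were left out (429, 569 and 596 per array), the log2 processed signal was centred on the 75th percentile of the remaining ones, and replicated probes were averaged over their 10 spots. A probe was measured in a comparison when at least 50% of its spots passed the software's background call on both arrays, and a gene was read by its brightest such probe. Probes were named through RefSeq accessions and the gene table of GRCh38.p14, which named 25771 of 34127 probes (75.5%). The error of a single-spot ratio was propagated from the scanner software's signal errors. An area of an array was called disturbed where, within 17 rows by 7 columns, 5 or more spots that were dim on the other arrays, making up 25% or more of such spots, gave a signal 4-fold brighter or more. Such areas held 2279 gene spots at CA 100 μM, 60 in untreated cells and 19 at CA 50 μM, and touched probes of CYP2J2, FMO5, GSTA4, NR1I2 and SULT1B1.

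Calls at 1.5-fold describe the arrays without a test, and the number of arrays limits the precision. Values on every array were given for members past 1.5-fold (none), those above background on some arrays only, the 10 with the strongest untreated signal, receptors and carboxylesterases, those with replicated probes and those whose probes disagreed in sign by at least 0.3; other members were given as ranges or with examples. The members and lists were chosen with earlier results of these data known. The steps were tested on simulated data, and 12 alternatives were tried, with normexp run on median spot intensities at an offset of 50. The software was Python 3.11.15 with numpy 2.4.6, pandas 2.3.3 and matplotlib 3.10.9, and R 4.3.3 with limma 3.58.1. The study's miRNA arrays and other cells were not analysed here.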

Additional observations from a re-analysis of the deposited data

How the results depend on the processing

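No paired analysis was possible because each group had 1 array, and for the same reason no replicate could be left out. Of the counts and medians over members, 111 values under the 12 alternatives were counted as kept and 6 as moved, where a value counted as kept was not always unchanged. At CA 50 μM against untreated, 1 member was at least 1.5-fold lower under quantile normalization and 1 in the deposited log2 table (UGT2B7, at -0.59 in each), and 2 were without a filter on dim probes (CYP3A4 and SULT1B1, neither above background). Without that filter 1 member (SULT1B1) was at least 1.5-fold lower at CA 100 μM. The median at CA 100 μM, -0.13, became -0.068 under quantile normalization and -0.062 when the probes of a gene were averaged. Under cyclic loess and in the deposited log2 values it came to nearly the same level, as given above, although both were counted among the 111. The median over members ranged from -0.22 to -0.13 at CA 50 μM and from -0.16 to -0.06 at CA 100 μM. Of 39 members, 26 stayed below 0 and 5 above 0 (CYP2D6, CES2, GSTM4, MGST1 and ARNT) under all alternatives at CA 50 μM that could be formed, and 8 changed sign under at least 1. The 26 include CYP2B6, CYP3A5 and UGT1A6, whose dimmer probes lay at 0.36, 0.12 and 0.15 and for which only 11 alternatives could be formed. They also include GSTP1, which reached -0.01 in the deposited log2 values. A sign kept here is therefore no direction for a gene whose probes or scalings disagree. At CA 100 μM 22 stayed below, 3 above (GSTM3, GSTM4 and ARNT) and 14 changed sign, and between the CA arrays 14 stayed below, 18 above and 7 changed. Why these values moved was not tested. Members at signals near 20, such as CYP2E1 and NR1I3, are limited by signal over background.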
